A study of Mus musculus with 39 samples.

Results

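The small leucine-rich proteoglycans (SLRPs) are described here across mouse cortical bone of 2 mutants with high trabecular bone mass and their controls. The 10 genes are Bgn, Dcn, Aspn, Lum, Fmod, Prelp, Kera, Omd, Ogn and Podn. They were chosen by name, as the rows of the deposited count tables whose Ensembl gene identifier belongs to a member symbol, and make up 10 of the 37583 genes counted. All 10 passed the filter on low counts in every fit. RNA came from femurs with the epiphyses cut off, and 39 libraries were sequenced with single-end reads on a BGISEQ-500 instrument. The first mutant is Sik2/3 DKO (8 libraries), labelled as lacking both salt-inducible kinases 2 and 3, which act downstream of the parathyroid hormone receptor, and its own WT group has 8 libraries. The other mutant is Col1a1-Pth1r H223R (12 libraries, called C1HR), a transgene in which a type I collagen promoter drives a parathyroid hormone receptor that signals without its hormone. This promoter is active in cells of the osteoblast lineage, and the WT group of this experiment has 11 libraries. Each mutant was set against its own WT group, and the groups carry no treatment that the labels name. The Cre driver of the kinase deletion, the ages, the strain and the sex are not given in the sources used here. The series' design text counts 6 WT libraries for the kinase experiment where 8 are labelled so, and all 8 were used. Nothing in the labels says that the libraries of a group came from separate animals, so p-values measure the spread between these samples.

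SLRPs are secreted matrix proteins with a short core of leucine-rich repeats, and most carry chondroitin, dermatan or keratan sulfate chains. They bind the surface of collagen fibrils and set how fibrils grow and pack, and several also bind growth factors such as TGF-beta. Osteoblasts lay down biglycan and decorin in the bone matrix, mice without biglycan have low bone mass, and osteomodulin (osteoadherin) is known mainly from bone and tooth.

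Libraries held 22122742 to 23306853 gene counts in those labelled DKO and 20324595 to 24922490 in their WT group, and 14909609 to 16370874 in C1HR and 11444686 to 13475805 in its WT group. The share of reads set aside as not uniquely mapped also moved with the C1HR genotype, at 25.9% to 36.5% in C1HR, against 44.8% to 55.1% in its WT group, with no overlap, and its part in the results was not tested. It was 29.6% to 36.9% in libraries labelled DKO, against 25.1% to 41.2% in those labelled WT. Pth1r was higher in C1HR (log2 difference 1.89 ± 0.102 SE, adjusted p = 8.68e-15 by edgeR), with a lowest, median and highest value of 350.7, 483.6 and 579.6 CPM (counts scaled to 1000000 per library), against 97.69, 129.8 and 159.8 CPM in its WT group. In libraries labelled DKO Pth1r was lower (−1.02 ± 0.186 SE, adjusted p = 0.000326). Sik2 was lower in C1HR (−0.60 ± 0.0925 SE, adjusted p = 1.47e-06), and Sik3 was higher there (1.01 ± 0.0821 SE, adjusted p = 2.04e-11). In the kinase experiment Sik2 went against its label. It had 20.28, 31.4 and 38.12 CPM in the libraries labelled DKO, against 15.73, 18.62 and 25.5 CPM in those labelled WT, and so was higher in the libraries labelled DKO by 0.64 ± 0.14 SE on the log2 scale (adjusted p = 0.00127 by edgeR). Sik3 had 80.43, 83.3 and 124.9 CPM in libraries labelled DKO, against 69.63, 110.9 and 133.6 CPM in those labelled WT, a difference that did not pass (−0.21 ± 0.144 SE, adjusted p = 0.223). Gene counts do not show a deleted exon, and the directions below are those of the libraries so labelled.

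Blood-cell markers moved with the genotype in both experiments and in opposite directions. Summed CPM of 6 erythroid markers lay between 908.3 and 2919 in libraries labelled DKO, against 18.86 to 1164 in those labelled WT, with 5 of the 6 genes higher. The highest sums labelled WT were 1164 in WT 5 and 869.5 in WT 6, and the others reached at most 133.1. The 6-gene erythroid sum was also taken in the C1HR experiment. The same sum lay between 52.55 and 4311 in C1HR libraries, against 9483 to 14550 in WT libraries of that experiment, with 6 of 6 lower. All 6 granulocyte, all 6 B lineage and all 5 megakaryocyte markers were higher in libraries labelled DKO, and all 6, 5 of 6 and all 5 were lower in C1HR. Over all genes tested, 24.1% were higher in libraries labelled DKO and 40.6% lower in C1HR at an adjusted p under 0.05. By the series' design text the flushing of marrow was left out in the C1HR experiment, while the extraction text of each library says that marrow was flushed, and the files do not settle this. Of the 4 osteoclast markers measured, all were lower in libraries labelled DKO and all higher in C1HR. All 4 mast cell markers were likewise lower in libraries labelled DKO and higher in C1HR. Shares over all genes in these directions were 30.9% lower in libraries labelled DKO and 43.7% higher in C1HR. Osteoblast markers were present throughout. The 6 markers, among them Bglap, Ibsp and Col1a1, summed to at least 30580 CPM in any library, a sum made up mostly of Col1a1. No marker was at 0 in every library of a group. In bulk bone, fewer cells of a type and less RNA per cell cannot be told apart, and the part of these cell mixtures in the results below was not tested.

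Most SLRP genes sit in clusters, given here in mm9 coordinates. Aspn (ENSMUSG00000021388, chr13:49639812-49662926), Omd (ENSMUSG00000048368, chr13:49678135-49687978) and Ogn (ENSMUSG00000021390, chr13:49703440-49719869) follow each other on the plus strand, with gaps of 15.2 and 15.5 kb. Dcn (ENSMUSG00000019929, chr10:96942245-96980777), Lum (ENSMUSG00000036446, chr10:97028135-97035337) and Kera (ENSMUSG00000019932, chr10:97069817-97076322) do the same with gaps of 47.4 and 34.5 kb. Prelp (ENSMUSG00000041577, chr1:135806881-135817991, minus strand) and Fmod (ENSMUSG00000041559, chr1:135933831-135944854, plus strand) lie 115.8 kb apart. No other annotated gene lies wholly in any of these gaps. Ecm2, a related leucine-rich matrix gene counted below, lies before Aspn on the plus strand (chr13:49600179-49628158). Bgn (ENSMUSG00000031375, chrX:70728941-70741272, plus strand) and Podn (ENSMUSG00000028600, chr4:107687396-107704942, minus strand) have no neighbour among the members. Exons of Prelp overlap those of Gm15851 on the other strand. Counting ignored strand, and ambiguous reads are among the unassigned tallies that were left out, so reads in the shared stretch may be missing from Prelp. Exons of Col1a1 overlap those of Gm17329, exons of Chadl those of L3mbtl2 and exons of Epyc those of Gm10754 in the same way.

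The promoters of Aspn, Omd and Ogn are shown because these genes had the highest fold differences of the 10 members in C1HR. Each holds 250 bases before and 50 after the RefSeq start, in GRCm38.p6, a later build than that of the counts: Aspn chr13:49544193-49544492, Omd chr13:49582212-49582511 and Ogn chr13:49607765-49608064, all on the plus strand. Capitals mark matches, on either strand, to TATAAA (the TATA box), TGTGGT (the core bound by RUNX factors), TGACG (part of the cAMP response element) or TGANTCA (the AP-1 site).
Aspn: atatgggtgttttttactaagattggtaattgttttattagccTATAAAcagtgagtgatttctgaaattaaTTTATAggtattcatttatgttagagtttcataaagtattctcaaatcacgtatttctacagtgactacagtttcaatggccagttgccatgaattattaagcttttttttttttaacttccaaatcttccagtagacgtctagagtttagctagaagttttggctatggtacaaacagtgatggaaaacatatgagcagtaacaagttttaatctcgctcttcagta
Omd: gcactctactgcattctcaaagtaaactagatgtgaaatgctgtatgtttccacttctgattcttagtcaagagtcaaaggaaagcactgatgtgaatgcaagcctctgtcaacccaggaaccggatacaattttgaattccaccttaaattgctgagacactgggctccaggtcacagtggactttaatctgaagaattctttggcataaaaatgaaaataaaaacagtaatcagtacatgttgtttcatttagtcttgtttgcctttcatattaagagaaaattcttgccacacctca
Ogn: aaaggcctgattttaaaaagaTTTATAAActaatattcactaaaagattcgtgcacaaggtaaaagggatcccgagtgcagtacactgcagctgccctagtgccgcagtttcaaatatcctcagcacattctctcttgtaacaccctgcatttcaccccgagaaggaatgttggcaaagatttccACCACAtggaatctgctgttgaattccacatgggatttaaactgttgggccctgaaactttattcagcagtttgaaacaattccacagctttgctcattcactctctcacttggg
Matches to TATAAA begin 207 and 178 bases before the start in Aspn, the second on the other strand, and 229 and 227 bases before it in Ogn, where they overlap on opposite strands. Ogn also holds TGTGGT on the other strand, 65 bases before the start. None of the motifs lies in the Omd window. TATAAA is in 13.6%, TGTGGT in 16.8%, TGACG in 20.8% and TGANTCA in 7.81% of the 32851 mouse promoters of this length, and none of them is in the windows of Bgn, Fmod, Prelp, Kera or Podn. These matches describe letters and no binding was measured. The GC content of the windows was 42.3% for Ogn, 37.7% for Omd and lower still for Aspn, all below the lower quartile of all promoters (45.7%). Promoters of Dcn and Lum were not used here.

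Levels of different members were set side by side as CPM per kb of exon, a scale that divides by length. Bgn and Dcn led the family. Dcn was first in 27 of the 39 libraries and Bgn in the other 12. Dcn had a lowest, median and highest level of 499.5, 840.6 and 1406 CPM per kb in libraries labelled DKO, against 459.9, 808.6 and 1363 in those labelled WT, and 911.6, 1124 and 1270 in C1HR, against 327.2, 370.3 and 420.5 in its WT group. Bgn had 442.6, 646.4 and 900.2 CPM per kb in libraries labelled DKO, against 443.9, 876.3 and 1100 in those labelled WT, and 674.8, 1003 and 1275 in C1HR, against 202.9, 300.2 and 349.6 in its WT group. The ranges of Dcn and Bgn overlapped in all 4 groups, although Dcn was first in 11 of the 11 WT libraries of the C1HR experiment. Lum, with a median rank of 3, came next, at median levels of 576.9 CPM per kb in libraries labelled DKO, against 622.8 in those labelled WT, and of 674.2 in C1HR, against 216.7 in its WT group. Its range overlapped that of Bgn in every group.

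Fmod, Aspn, Omd and Ogn formed a middle tier whose order changed between groups. Their ranges overlapped, except that Fmod lay above Omd and Ogn in the WT group of C1HR. In C1HR their median levels were 103.6 CPM per kb for Fmod, 193.4 for Aspn, 195.4 for Omd and 144.3 for Ogn, against 42.34, 23.96, 16.26 and 16.66 in its WT group. Fmod was thus the lowest of the 4 medians in C1HR and the highest in its WT group. Prelp lay lower, with median levels between 6.582 and 10.42 CPM per kb in the 4 groups, and Kera and Podn were the lowest, at medians between 0.5094 and 1.705 for Kera and between 0.1401 and 0.8598 for Podn. Kera and Podn rest on few reads. In the C1HR experiment Kera had 2 to 95 reads per C1HR library and 1 to 44 per WT library, and Podn had 6 to 24 and 4 to 18.

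**Figure D1:**
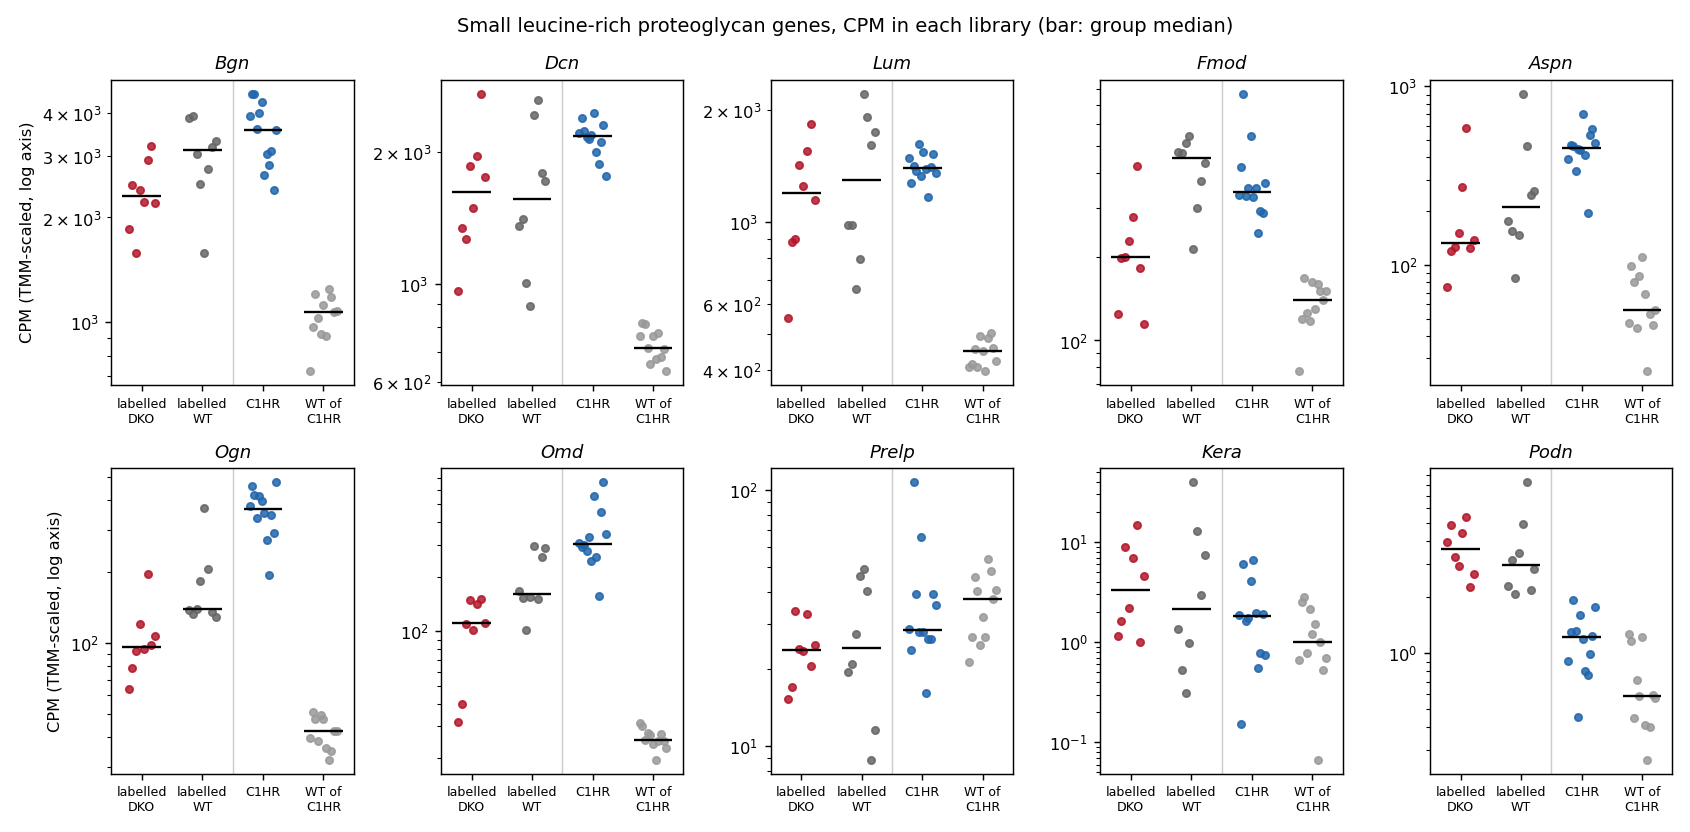
CPM of each SLRP gene in every library, on a log axis, with the groups DKO, WT, C1HR and WT from left to right; each point is 1 library and the bar is the group median. C1HR points of Bgn, Dcn, Lum, Fmod, Aspn, Ogn and Omd all lie above those of their WT group, while the points of libraries labelled DKO and WT overlap for every gene.

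In C1HR bone 8 of the 10 members were higher than in its WT group and none was lower at an adjusted p under 0.05. Over all genes tested in this comparison 84.3% of 13976 were called, 43.7% higher and 40.6% lower. The median log2 fold change of the members was 1.61, against 0.05 over all genes. The ranges of C1HR and WT libraries did not overlap for 7 of 10 members, all higher in C1HR, against 27.8% of all genes.

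The class I proteins come first. Bgn encodes biglycan, which carries chondroitin or dermatan sulfate chains and binds type I collagen and TGF-beta. It had a lowest, median and highest value of 2404, 3575 and 4542 CPM in C1HR, against 722.8, 1069 and 1246 CPM in its WT group. Every C1HR library was above every WT library, and the log2 fold change was 1.77 ± 0.111 SE (edgeR quasi-likelihood test, adjusted p = 1.68e-13), or 3.40-fold. Dcn encodes decorin, the closest relative of biglycan, with a chain at its end and a role in fibril diameter. It had 1766, 2177 and 2460 CPM in C1HR, against 633.7, 717.4 and 814.4 CPM in its WT group. Again the groups were apart, by a log2 fold change of 1.57 ± 0.0607 SE (adjusted p = 5.52e-17). Spread within both groups was small, at 2158 ± 199.9 CPM in C1HR (SD, n = 12) and 728 ± 61.7 CPM in its WT group (SD, n = 11). Aspn encodes asporin, a class I member with an aspartate-rich stretch and no typical glycosaminoglycan attachment site, known to bind collagen and TGF-beta. It had 195.7, 453.7 and 701.5 CPM in C1HR, against 25.38, 56.2 and 111.4 CPM in its WT group. The groups did not overlap, and the log2 fold change was 2.80 ± 0.223 SE (adjusted p = 3.33e-11), or 6.96-fold.

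Of the class II proteins, many of which carry keratan sulfate, Lum encodes lumican, which keeps fibrils thin and evenly spaced in the cornea. It had 1166, 1399 and 1616 CPM in C1HR, against 397.1, 449.6 and 503.3 CPM in its WT group. The groups were fully apart (log2 fold change 1.66 ± 0.0594 SE, adjusted p = 2.72e-17). Fmod encodes fibromodulin, which binds the same stretch of collagen as lumican and is known from tendon and cartilage. It had 244.1, 342.4 and 770.7 CPM in C1HR, against 77.59, 140.0 and 167.9 CPM in its WT group. Every C1HR library was higher, by a log2 fold change of 1.499 ± 0.162 SE (adjusted p = 5.38e-09). The highest values were in C1HR 3 and C1HR 6, which also had the highest sums of 6 cartilage markers, 6189 and 3336 CPM, and none of those 6 markers was called between the groups. Without these libraries the Fmod log2 fold change was 1.29 (adjusted p = 2.26e-10), a fit chosen after the values were seen.

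Omd encodes osteomodulin, an acidic keratan sulfate proteoglycan that binds hydroxyapatite, and it had the highest fold difference of the family. Its lowest, median and highest values were 156.3, 304.0 and 662.2 CPM in C1HR, against 19.62, 25.3 and 31.3 CPM in its WT group. The lowest C1HR library stood far above the highest WT library, and the log2 fold change was 3.75 ± 0.191 SE (adjusted p = 7.58e-15), or 13.5-fold. Ogn encodes osteoglycin (mimecan), the class III member of the cluster. It had 193.6, 366.5 and 476.3 CPM in C1HR, against 32.05, 42.31 and 50.97 CPM in its WT group. These groups were likewise apart, by 3.11 ± 0.129 SE on the log2 scale (adjusted p = 1.23e-16), or 8.63-fold.

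The remaining 3 members behaved otherwise. Podn encodes podocan, a class V protein whose loss in mice is known to raise vascular smooth muscle growth. It had 0.4541, 1.216 and 1.918 CPM in C1HR, against 0.2671, 0.59 and 1.261 CPM in its WT group. The groups overlapped, with 11 of 12 C1HR libraries above the WT mean, and the difference passed (0.78 ± 0.252 SE, adjusted p = 0.00624) but not with plain library totals (0.37, adjusted p = 0.161). Kera encodes keratocan, a keratan sulfate proteoglycan of the cornea. It had 0.1537, 1.81 and 6.666 CPM in C1HR, against 0.06678, 1.005 and 2.826 CPM in its WT group. The ranges overlapped almost wholly and the difference did not pass (0.88 ± 0.481 SE, adjusted p = 0.0941), although it did without C1HR 2 (adjusted p = 0.0454). Prelp encodes an arginine- and proline-rich protein that links basement membranes and cartilage matrix to collagen. It had 16.12, 28.39 and 107.5 CPM in C1HR, against 21.29, 37.67 and 54.03 CPM in its WT group. Most C1HR libraries lay below the WT mean and 4 of 12 above it, and no difference was detected (0.09 ± 0.257 SE, adjusted p = 0.743). The highest Prelp values were again in C1HR 3 (107.5 CPM) and C1HR 6 (65.6 CPM). Without those libraries the log2 fold change was −0.31 (adjusted p = 0.0949), and with plain library totals it was −0.34 (adjusted p = 0.191).

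In the libraries labelled DKO 3 of the 10 members, Fmod, Ogn and Omd, were lower than in those labelled WT and none was higher. Over all genes tested 55.0% of 15479 were called, 24.1% higher and 30.9% lower, so the members' share called lower was near that of all genes. The members had a median log2 fold change of −0.49, against −0.09 over all genes. The groups overlapped for all 10 members, whereas 10.0% of all genes had ranges that did not. Scaling by plain library totals turned the split of called genes to 5270 higher and 2697 lower, against 3726 higher and 4788 lower with TMM, and left Fmod as the 1 member called. In C1HR it gave 4321 higher and 7698 lower, against 6109 higher and 5678 lower with TMM, with 7 members called.

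Fmod had a lowest, median and highest value of 114.7, 198.8 and 424.2 CPM in libraries labelled DKO, against 213.5, 453.3 and 542.9 CPM in those labelled WT. The ranges overlapped, with 7 of 8 libraries labelled DKO below the WT mean, and the log2 fold change was −0.93 ± 0.251 SE (edgeR quasi-likelihood test, adjusted p = 0.00545). Omd had 31.55, 111.0 and 151.4 CPM in libraries labelled DKO, against 102.0, 161.3 and 294.5 CPM in those labelled WT. All 8 libraries labelled DKO were below the WT mean although the ranges overlapped, and the log2 fold change was −0.90 ± 0.317 SE (adjusted p = 0.0234). Its call was lost with plain library totals (−0.72, adjusted p = 0.0746), with limma voom (−0.60, adjusted p = 0.0563) and without WT 8 (−0.80, adjusted p = 0.0520). Ogn had 63.89, 95.78 and 195.9 CPM in libraries labelled DKO, against 128.1, 138.6 and 370.3 CPM in those labelled WT. Again 7 of 8 libraries labelled DKO were below the WT mean (−0.75 ± 0.249 SE, adjusted p = 0.0175). The Ogn call was lost with plain library totals (−0.59, adjusted p = 0.0868) and without WT 5 and 6, libraries that an earlier analysis of these data had placed apart (−0.40, adjusted p = 0.0883).

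Bgn, Dcn and Lum, the highest per length, did not pass in this experiment. Bgn had 1577, 2303 and 3207 CPM in libraries labelled DKO, against 1582, 3122 and 3919 CPM in those labelled WT. The ranges overlapped, with 7 of 8 libraries labelled DKO below the WT mean, and the difference missed the threshold (−0.36 ± 0.183 SE, adjusted p = 0.106). It passed without WT 5 (−0.46, adjusted p = 0.0173), without WT 5 and 6 (−0.46, adjusted p = 0.0205) and with limma voom (−0.48, adjusted p = 0.00278). Dcn had 967.6, 1628 and 2724 CPM in libraries labelled DKO, against 890.9, 1566 and 2640 CPM in those labelled WT, and the groups lay over each other (0.01 ± 0.242 SE, adjusted p = 0.967). Lum had 551.4, 1197 and 1830 CPM in libraries labelled DKO, against 658.4, 1292 and 2211 CPM in those labelled WT, with partial overlap (−0.19 ± 0.277 SE, adjusted p = 0.573).

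Aspn was scattered in both groups. It had 75.06, 131.9 and 583.7 CPM in libraries labelled DKO, against 84.87, 211.1 and 911.7 CPM in those labelled WT. A library of each group, DKO 6 and WT 5, stood high, and the difference did not pass (−0.62 ± 0.491 SE, adjusted p = 0.295). It passed without DKO 6 (−1.08, adjusted p = 0.0486), and turned to 0.19 without WT 5 and 6. Prelp had 15.32, 23.79 and 33.79 CPM in libraries labelled DKO, against 8.863, 24.28 and 49.17 CPM in those labelled WT, with no difference detected (−0.22 ± 0.315 SE, adjusted p = 0.561). Kera had 1.001, 3.362 and 14.7 CPM in libraries labelled DKO, against 0.3094, 2.15 and 39.62 CPM in those labelled WT (−0.69 ± 0.871 SE, adjusted p = 0.518). The highest Kera value, in WT 5, decided its sign: the log2 fold change was 0.43 without WT 5 and 1.19 without WT 5 and 6, and limma voom called it higher at 1.82 (adjusted p = 0.028). Podn had 2.263, 3.622 and 5.379 CPM in libraries labelled DKO, against 2.077, 2.99 and 8.272 CPM in those labelled WT (0.03 ± 0.284 SE, adjusted p = 0.936). It was higher without WT 5 and 6 (0.51, adjusted p = 0.0404). WT 5 also had the highest sums of erythroid, granulocyte and megakaryocyte markers of the libraries labelled WT, 1164, 5219 and 1156 CPM. WT 6 came next, at 869.5, 4259 and 685.5 CPM, and the others reached at most 133.1, 1565 and 111.9 CPM. Osteoclast sums of WT 5 and WT 6, 9035 and 4257 CPM, were below the 16040 to 29770 CPM of the others. Libraries labelled DKO had osteoclast sums of 3416 to 7949 CPM. WT 6 also had the highest sum of 5 skeletal muscle markers, 26860 CPM.

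**Figure D2:**
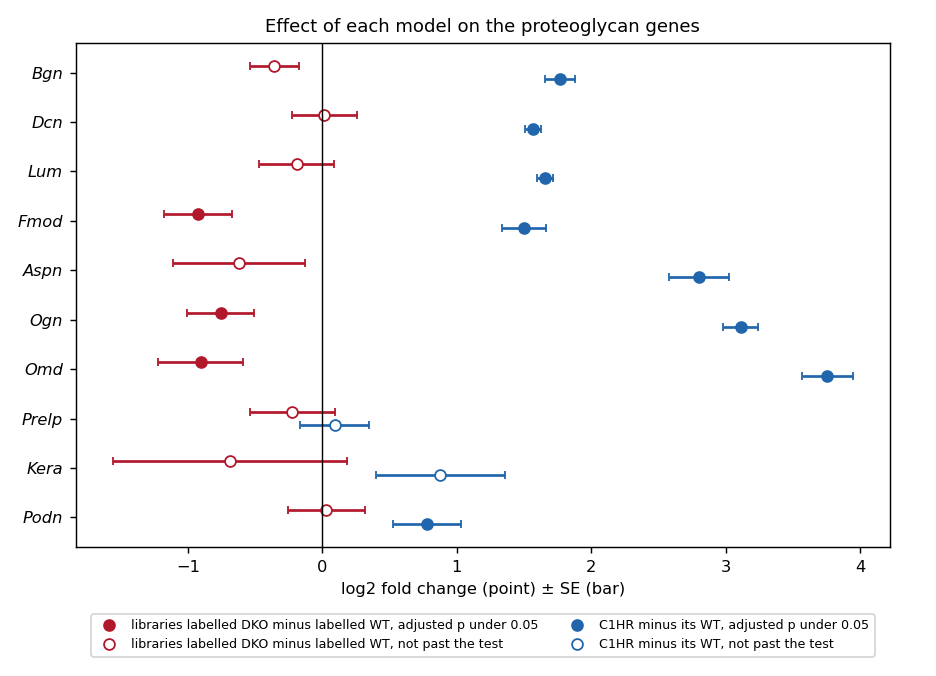
Log2 fold changes of the SLRP genes with SE bars, for DKO minus WT and for C1HR minus WT. Filled points passed at an adjusted p under 0.05, open points did not, and the vertical line is at 0. Omd and Ogn lie farthest to the right in C1HR, at 3.75 and 3.11, while Fmod, Omd and Ogn are the called genes on the left in DKO.

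The effects of the mutants on the same gene were compared in 1 fit over all 39 libraries, as the effect in DKO minus the effect in C1HR. This difference passed for 7 of 10 members, all below 0, where 80.2% of the 15387 genes tested passed and 42.0% passed below 0. Its median was −1.92 over the members, against −0.10 over all genes. The difference was −4.60 ± 0.364 SE for Omd (edgeR quasi-likelihood test, adjusted p = 4.05e-14), −3.81 ± 0.266 SE for Ogn (adjusted p = 1.55e-15) and −3.36 ± 0.509 SE for Aspn (adjusted p = 2.06e-07). For the other called members it was −2.37 for Fmod, −2.06 for Bgn, −1.79 for Lum and −1.49 for Dcn. It did not pass for Kera (−1.52 ± 0.971 SE, adjusted p = 0.148), Podn (−0.69 ± 0.384 SE, adjusted p = 0.0964) or Prelp (−0.26 ± 0.411 SE, adjusted p = 0.563). The mutants were compared through separate WT groups, and the handling of marrow may have differed between the experiments, so experiment and genotype cannot be told apart in the difference.

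Because SLRPs coat type I collagen, each member was also expressed as reads per 1000 Col1a1 reads of the same library, a ratio that no library scaling moves. Col1a1, the main collagen gene of bone, was higher in C1HR by 2.19 ± 0.138 SE on the log2 scale (adjusted p = 1.64e-13), while its difference in libraries labelled DKO did not pass (−0.59 ± 0.256 SE, adjusted p = 0.0609). Relative to Col1a1, 2 of 10 members were lower in all C1HR libraries than in any WT library, where 73.7% of all genes were, and no member was higher in all. Bgn was one of these members, at 16.2, 16.87 and 18.51 reads per 1000 Col1a1 reads in C1HR, against 19.22, 23.69 and 26.05 in its WT group. Prelp was the other, at 0.08614, 0.1615 and 0.3987 in C1HR, against 0.6554, 0.751 and 0.9832 in its WT group. Medians of Omd, Ogn and Aspn were higher in C1HR on this scale, where 3.05% of all genes had a higher median. With Col1a1 as the divisor, this follows from log2 fold changes above the 2.19 of Col1a1, which were 3.75 for Omd, 3.11 for Ogn and 2.80 for Aspn. It is therefore no separate result. Omd had 0.9317, 1.385 and 5.06 reads per 1000 Col1a1 reads in C1HR, against 0.4052, 0.5363 and 1.104 in its WT group. Ogn had 1.154, 1.694 and 2.427 in C1HR, against 0.5742, 0.9167 and 1.392 in its WT group. Aspn had 1.167, 1.818 and 4.795 in C1HR, against 0.4546, 1.422 and 2.658 in its WT group. All 3 ranges overlapped, and the other 7 members had lower medians in C1HR. Dcn, for example, had 8.227, 9.935 and 17.67 in C1HR, against 11.31, 15.39 and 26.95 in its WT group.

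In the kinase experiment 8 of the 10 members had a higher median per Col1a1 read in libraries labelled DKO than in those labelled WT, with overlap in every case. Col1a1 is the divisor here, and over all genes 84.1% had a higher median on this scale. Dcn had 19.29, 27.31 and 34.23 reads per 1000 Col1a1 reads in libraries labelled DKO, against 9.985, 13.78 and 68.12 in those labelled WT. The highest values were in WT 5 and WT 6, and the other 6 libraries labelled WT lay between 9.985 and 18.96, below every library labelled DKO. Bgn had 32.65, 39.44 and 42.65 in libraries labelled DKO, against 28.32, 32.04 and 44.25 in those labelled WT. Fmod and Omd were the members with lower medians, at 3.534 and 1.823 in libraries labelled DKO, against 4.349 and 2.042 in those labelled WT.

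**Figure D3:**
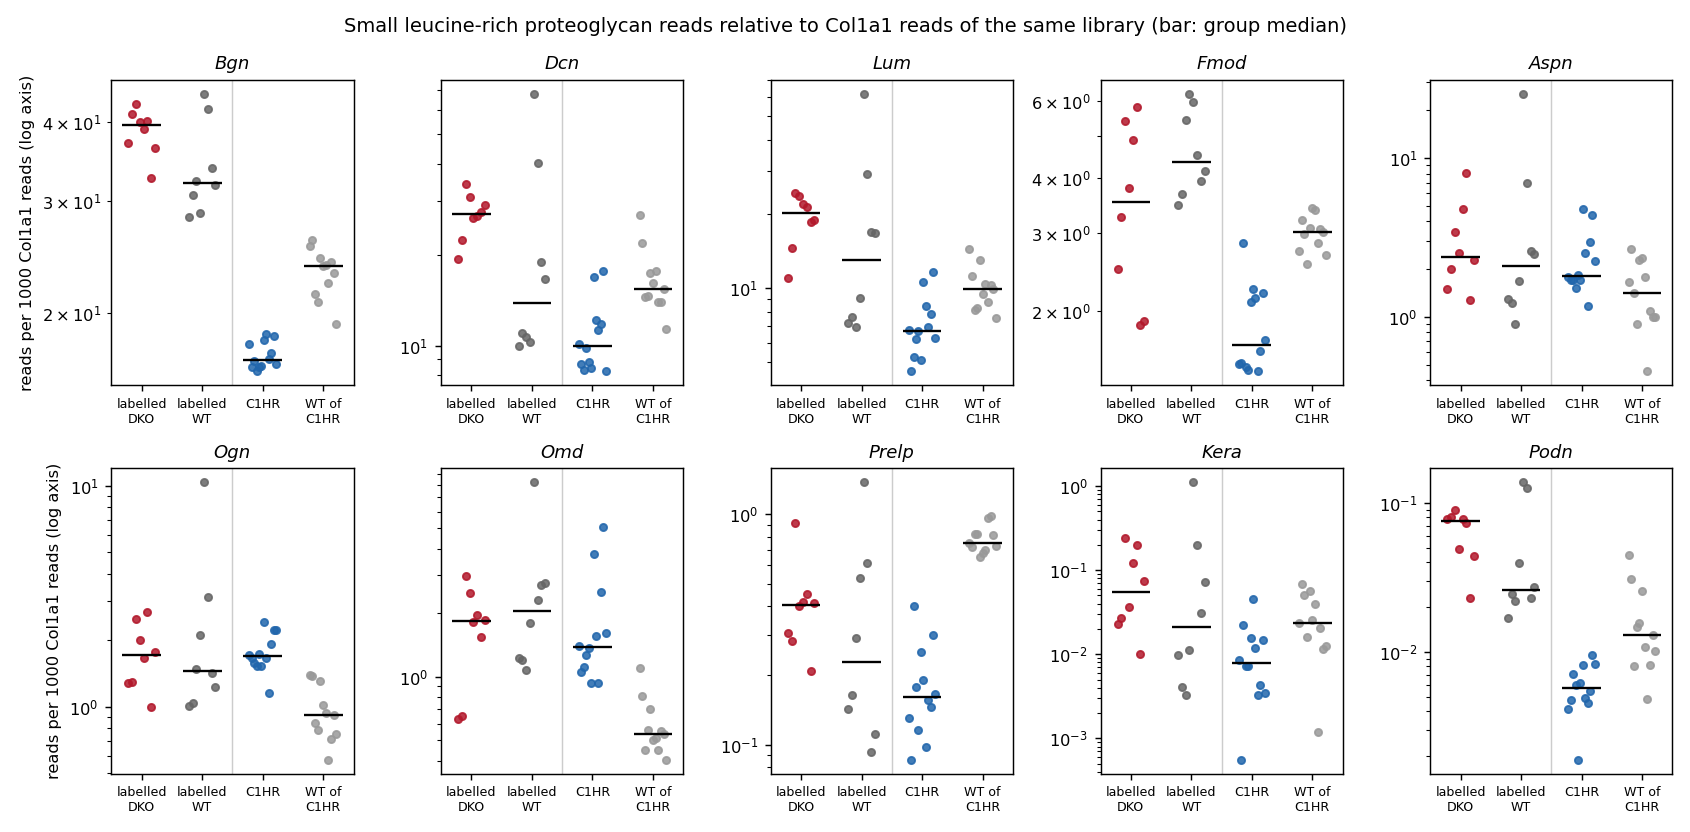
Reads of each SLRP gene per 1000 Col1a1 reads in every library, on a log axis, with the groups DKO, WT, C1HR and WT from left to right and bars at the medians. C1HR points of Bgn and Prelp lie below all points of their WT group, and C1HR medians of Omd, Ogn and Aspn lie above.

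How the members varied among libraries of the same group was described by Pearson's r of log2 CPM over the 39 libraries after each group's mean was taken off; the libraries share their scaling, and no test was made. Dcn and Lum, neighbours on chromosome 10, were the most alike of all member pairs (r = 0.89), with 0.945 in the kinase experiment and 0.216 in the C1HR experiment, where both varied little. Aspn and Ogn had r = 0.756, with 0.819 and 0.633 in these experiments. Lum and Omd had r = 0.712 and Bgn and Fmod 0.653, whereas Bgn and Dcn, the closest relatives in the family, had 0.0926.

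Against 9928 genes with a mean of at least 5 CPM in every group, the most like gene was a different gene for every member. For Bgn it was Col1a1 (r = 0.961, with 0.96 in the kinase and 0.965 in the C1HR experiment). For Dcn it was Bglap2 (0.935), an osteocalcin gene whose reads may be split with its near-identical copy Bglap, and for Lum it was Dcn. For Fmod it was Mest (0.819), an imprinted growth-related gene, and for Ogn it was Igf2 (0.817), an insulin-like growth factor gene. For Aspn it was Ptn (0.868), encoding pleiotrophin, followed by Postn (0.856), encoding periostin. For Omd it was Clec14a (0.793), an endothelial gene. For Prelp it was Comp (0.756), a cartilage and tendon matrix gene, and for Kera it was Mylpf (0.828), followed by Pvalb (0.826), both genes of skeletal muscle. Podn was most like Abi3bp (0.627).

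**Figure D4:**
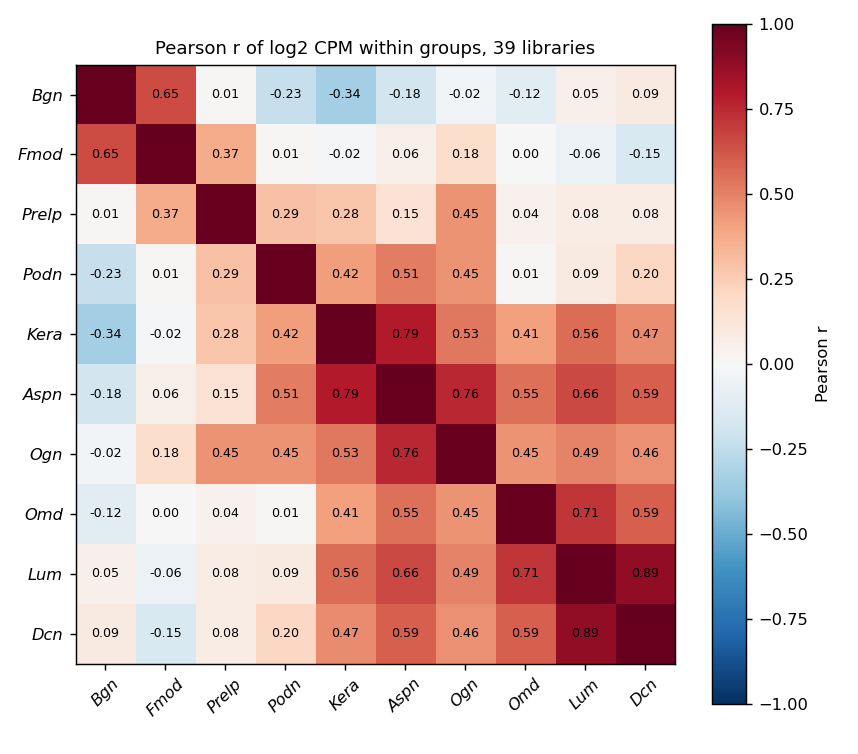
Pearson's r of log2 CPM within groups between each pair of SLRP genes over 39 libraries, as a grid of coloured cells with the value printed. Dcn with Lum (0.89) is the highest, Aspn is high with Kera (0.79) and Ogn (0.76), and Bgn with Kera is the lowest (−0.34).

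Of 8 other family or related leucine-rich matrix genes, 5 of the 6 tested were higher in C1HR than in its WT group and none was lower. In libraries labelled DKO 3 of the 6 tested were lower and none was higher. All genes had shares of 43.7% higher and 40.6% lower in C1HR, and 24.1% higher and 30.9% lower in libraries labelled DKO. Podnl1, the podocan-like gene, had a median of 121.4 CPM in C1HR, against 23.64 CPM in its WT group (log2 fold change 2.25, adjusted p = 1.31e-14). It lay between 37.57 and 66.58 CPM in libraries labelled DKO, against 72.47 to 196.6 CPM in those labelled WT (−1.55, adjusted p = 4.22e-05). The groups were apart in both experiments, in opposite directions. Tsku, encoding tsukushi, an inhibitor of BMP signalling described in chick, was higher in C1HR (1.84, adjusted p = 3.84e-15) and lower in libraries labelled DKO (−1.18, adjusted p = 0.00129). Ecm2 encodes a leucine-rich matrix protein and was higher in C1HR (2.00, adjusted p = 4.1e-14), with 13.58 to 30.05 CPM in C1HR and 4.341 to 7.257 CPM in its WT group. In libraries labelled DKO its log2 fold change was −0.17 (adjusted p = 0.574), and 0.18 without WT 5 and 6. Chadl, a cartilage protein related to chondroadherin, was lower in libraries labelled DKO (−0.50, adjusted p = 0.00357, but −0.28 and 0.0564 with plain library totals) and higher in C1HR (0.87, adjusted p = 0.0276), where the call was lost without C1HR 3 (0.57, adjusted p = 0.0840). Chad, encoding chondroadherin of cartilage, was higher in C1HR (1.13, adjusted p = 0.00432), with its highest values, 199.5 and 136.8 CPM, in C1HR 3 and C1HR 6, and had 0.84 in libraries labelled DKO (adjusted p = 0.172). The Chad call was lost with plain library totals (0.68, adjusted p = 0.0522). Epyc, encoding epiphycan of cartilage, had 0.15 in C1HR (adjusted p = 0.628) and was not tested in the other experiment. Nyx, encoding nyctalopin of the retina, had 0.32 in libraries labelled DKO (adjusted p = 0.432) and was not tested in C1HR, and Optc, encoding opticin of the eye, passed the filter in neither.

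The genes that build the sugar chains of SLRPs were counted from fixed lists. Over all genes, 43.7% were called higher and 40.6% lower in C1HR, and 24.1% higher and 30.9% lower in libraries labelled DKO. Of 26 genes for the linkage region and for chondroitin and dermatan sulfate, 19 were higher and 5 lower in C1HR, and 5 were higher and 11 lower in libraries labelled DKO. The epimerases that turn chondroitin into dermatan sulfate, Dse and Dsel, were higher in C1HR (log2 fold change 1.86, adjusted p = 8.51e-17, and 1.52, adjusted p = 6.04e-14). Chst3, a chondroitin 6-sulfotransferase, went the other way, lower in C1HR (−1.58, adjusted p = 1.15e-10) and higher in libraries labelled DKO (1.04, adjusted p = 2.94e-05), as Chst12, a chondroitin 4-sulfotransferase, was higher there (0.56, adjusted p = 0.000509). Of 6 keratan sulfate genes, 4 were higher and 1 lower in C1HR, and 1 was lower in libraries labelled DKO. The sulfotransferase Chst2 was higher in C1HR (1.46, adjusted p = 5.56e-14) and lower in libraries labelled DKO (−0.86, adjusted p = 0.000404), and Chst1 was higher in C1HR (1.39, adjusted p = 1.67e-10). The count of keratan sulfate genes called in libraries labelled DKO varied with the libraries and the method. Without WT 5 it was 6, and without DKO 7, WT 4 or WT 6 it was 2. It was 5 with limma voom and 2 with plain library totals. Without both DKO 6 and WT 5, a fit chosen after the values were seen, it was 4.

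Partners of SLRPs in the matrix were counted in the same way, beside shares over all genes of 43.7% higher and 40.6% lower in C1HR. In libraries labelled DKO these shares were 24.1% higher and 30.9% lower. Of 13 fibril genes, 12 were higher and none lower in C1HR, and 7 were lower and none higher in libraries labelled DKO, where 11 were called with limma voom. Eln, encoding elastin, was higher in C1HR (2.86, adjusted p = 7.14e-17) and lower in libraries labelled DKO (−2.81, adjusted p = 6.57e-05). The collagen VI genes followed, with Col6a1 at 2.38 in C1HR (adjusted p = 2.79e-16) and Col6a3 at −1.74 in libraries labelled DKO (adjusted p = 8.36e-05). Of 7 proteases that process or cut SLRPs, all 6 tested were higher in C1HR and 5 of 7 were lower in libraries labelled DKO. Bmp1, the procollagen protease that also removes the propeptide of biglycan, was higher in C1HR (2.19, adjusted p = 6.17e-16). The gelatinase Mmp2 was higher in C1HR (2.34, adjusted p = 3.86e-17) and lower in libraries labelled DKO (−1.35, adjusted p = 0.000208), and the collagenase Mmp13 was lower in libraries labelled DKO (−2.55, adjusted p = 1.8e-05).

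Of 8 growth factors and receptors that SLRPs bind, 6 were higher and none lower in C1HR, and 1 was higher and 3 lower in libraries labelled DKO. The shares over all genes were 43.7% higher and 40.6% lower in C1HR, and 24.1% higher and 30.9% lower in libraries labelled DKO. The 4 calls in the kinase experiment were 2 with RLE factors, 1 with plain library totals, 1 without WT 7, and 2 without DKO 1, 3 or 8 or without WT 1, 2, 3 or 8. Tgfb3 was higher in C1HR (1.82, adjusted p = 8.5e-15), as was the receptor gene Egfr (1.17, adjusted p = 1.23e-11). Igf1r was higher in libraries labelled DKO (0.63, adjusted p = 0.00175). Met was lower there (−0.44, adjusted p = 0.0252), a call lost with plain library totals (−0.21, adjusted p = 0.263), without WT 3 (adjusted p = 0.0511) and without WT 7 (adjusted p = 0.0512). Of 19 other proteoglycan core proteins tested, 17 were higher and 1 lower in C1HR, and 3 were higher and 9 lower in libraries labelled DKO. Spock1, encoding testican, was higher in C1HR by 6.05 ± 0.182 SE on the log2 scale (adjusted p = 1.19e-18), and Bcan, encoding brevican, by 2.28 (adjusted p = 1.35e-16). The syndecan genes Sdc2 and Sdc1 were lower in libraries labelled DKO (−1.01, adjusted p = 5.76e-05, and −2.55, adjusted p = 6.54e-05).

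Markers of tendon and of osteoblasts also differed between the groups. Beside their counts, 43.7% of all genes were higher and 40.6% lower in C1HR, and 24.1% higher and 30.9% lower in libraries labelled DKO. The summed level of 4 tendon and ligament markers lay between 40.75 and 103.4 CPM in C1HR, against 7.789 to 23.6 CPM in its WT group, with 4 of 4 genes higher. In libraries labelled DKO it ran from 32.64 to 137.1 CPM, highest in DKO 6, and in those labelled WT from 125.1 to 283.2 CPM, with 3 of 4 genes lower. The 6 osteoblast markers summed to 140300 to 287400 CPM in C1HR and to 30580 to 59770 CPM in its WT group, with 6 of 6 higher. They summed to 40060 to 106500 CPM in libraries labelled DKO and 42130 to 143800 CPM in those labelled WT, with 3 of 6 lower. These sums are mostly Col1a1. Bglap had a log2 fold change of 0.74 in libraries labelled DKO and was not called (edgeR, adjusted p = 0.125). Of other lists, 4 of 5 osteocyte, 4 of 4 endothelial, 3 of 3 marrow stromal and 2 of 3 tested adipocyte markers were higher in C1HR and none was lower. In libraries labelled DKO 1 osteocyte marker was higher and 1 lower, 1 marrow stromal marker was higher and 1 lower, and 1 of 4 endothelial and 1 of 4 adipocyte markers were lower. Of the 5 skeletal muscle markers none was called in either experiment, and of the cartilage markers 0 of 6 were called in C1HR and 0 of 5 tested in libraries labelled DKO. The part of these tissues in the differences of the SLRP genes was not tested.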

How the data were processed

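Bone RNA from 39 libraries was sequenced. Per the series' design text and the submitters' processing notes, the authors mapped reads with STAR to mm9 and made gene counts with HTSeq 0.6.0, without strand. The deposited values are whole-number counts per gene, although the design text calls them CPM. Each table held 37583 genes and 5 tallies of unassigned reads, which took 33.8% to 61.2% of a library's reads and were left out. Of the gene identifiers, 37168 matched the GENCODE annotation of mm9 and 415 did not. Counts without molecular identifiers are not independent molecules.

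From these counts edgeR 4.0.16 (R 4.3.3) was run with filterByExpr (minimum count 10, minimum total 15), TMM scaling and the robust quasi-likelihood test, with Benjamini-Hochberg adjustment over all genes tested and a threshold of 0.05. Fits were DKO against its WT, C1HR against its WT, and all 4 groups for the difference between the effects. CPM used TMM-scaled totals, and CPM per kb also the union of exons. Promoters came from RefSeq (GRCm38.p6), which matched 8 of the 10 members. Alternatives were DESeq2 1.42.0, RLE factors, plain totals, no filter, limma voom (limma 3.58.1), a replicate block and left-out libraries. Simulated data held 67 genes changed 1.5-fold, 67 changed 2-fold and 66 changed 4-fold, in random directions and with no shift in composition between groups. In the data 55.0% (DKO) and 84.3% (C1HR) of genes were called, so the rates below describe the simulated setting and need not hold for the fits above. On simulated data the DKO fit recovered 25.4% of genes changed 1.5-fold and 69.7% of those changed 2-fold, with 1.6% of calls on unchanged genes. The C1HR fit recovered 72.7% and 95.5%, with 7.0% of calls on unchanged genes, above the threshold of 5%. The fit of the difference recovered 40.3% and 65.7%, with 3.1% of calls on unchanged genes. No library pair within a group agreed within sampling noise.

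All members were named; of other lists, up to 2 called genes with the smallest p per comparison, and every measured gene of the related leucine-rich family. Genes named for likeness were the most alike in r. Members and lists were chosen with earlier results of these data known.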

Additional observations from a re-analysis of the deposited data

Results flagged for a closer look

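In the kinase experiment a library stood apart from the other 7 of its group, by Dixon's test at the 95% level, for 4 of the members. The groups of the C1HR experiment were not put to this outlier test. Dixon's test picks out about 1 in 20 groups by chance. Aspn had 584 CPM in DKO 6, where the other libraries labelled DKO had 75.1 to 272 CPM, and 912 CPM in WT 5, where the other libraries labelled WT had 84.9 to 463 CPM. Ogn, its neighbour, had 196 CPM in DKO 6, where the others had 63.9 to 120 CPM, and 370 CPM in WT 5, where the others had 128 to 206 CPM. Kera had 39.6 CPM in WT 5, where the others had 0.309 to 13.04 CPM. Podn had 8.27 CPM in WT 6, where the others had 2.08 to 4.93 CPM.

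The difference between DKO and its WT was not the same as that between C1HR and its WT for 7 of the 10 members, by the test of the difference itself, which 80.2% of 15387 genes passed. Experiment and genotype cannot be told apart in it. The effect in DKO minus the effect in C1HR, on the log2 scale, was −4.6 for Omd, −3.81 for Ogn, −3.36 for Aspn, −2.37 for Fmod, −2.06 for Bgn, −1.79 for Lum and −1.49 for Dcn.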

How the results depend on the processing

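With 1 exception, the counts of called members and of all called genes stayed within 1.5 times their values: plain library totals left 1 member called in DKO. Leaving out each library in turn gave 2 to 4 called members in DKO, 8 to 9 in C1HR and 7 to 7 for the difference between effects. Plain totals put the median log2 fold change of all genes at 0.12 in DKO and −0.35 in C1HR, against −0.09 and 0.05 with TMM. Of 65 results for single genes, 45 kept call and direction under every alternative run, and the cause of the changes below was not tested. With plain totals, Ecm2 in DKO was 0.0083, Prelp and Epyc in C1HR were −0.34 and −0.26, and the Prelp difference was 0.29. With limma voom, DKO values were 0.28 for Lum, 0.15 for Aspn, 0.0567 for Prelp, 1.82 for Kera and 0.16 for Ecm2, and the differences were 0.076 for Prelp and 1.13 for Kera. Without WT 5 and 6 and C1HR 8 and 9, DKO values were 0.11 for Lum, 0.19 for Aspn, 0.12 for Prelp, 1.19 for Kera and 0.18 for Ecm2, and the Kera difference was 0.20. Without DKO 6, WT 5, C1HR 3 and C1HR 6, chosen after seeing the data, Prelp and Epyc in C1HR were −0.31 and −0.0017 and the Prelp difference was 0.23. Leaving out single libraries moved DKO values of Dcn from −0.12 to 0.15, Kera from −1.13 to 0.43, Podn from −0.0644 to 0.33 and Ecm2 from −0.33 to 0.0228, and Prelp in C1HR from −0.16 to 0.17.

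The labels do not say whether the replicate numbers pair the samples, and correlations cannot decide it, since paired samples need not vary alike. Same-numbered libraries had correlations of −0.256 to 0.309 over 8 pairs in the kinase experiment, over 0.1 in 5 of them. In the other experiment they ran from −0.182 to 0.341 over 11 pairs, over 0.1 in 4. In each experiment 2 mutant libraries correlated best with their own number. With the replicate block, 3, 8 and 7 members were called in DKO, C1HR and the difference, Kera was 0.10 in DKO, Prelp was −0.0273 in C1HR and the Prelp difference was 0.0349. Kera and Podn had too few reads in the C1HR experiment for small differences to be detectable.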

Other observations

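The members differed in how evenly they were measured within a group. In C1HR the coefficient of variation of CPM over 12 libraries was 8.84% for Lum and 9.27% for Dcn, against 37.1% for Fmod, 40.7% for Omd and 64.3% for Prelp. In the libraries labelled DKO the same Lum and Dcn had 34.6% and 32.2%, and Aspn had 83.2%. Lum and Dcn were also spread in those labelled WT, at 658.4 to 2211 and 890.9 to 2640 CPM. In the WT group of C1HR they lay at 397.1 to 503.3 and 633.7 to 814.4 CPM. The summed CPM of the 10 members had a median of 5674 in libraries labelled DKO and 7435 in those labelled WT, and 8546 in C1HR and 2530 in its WT group. Bgn, Dcn and Lum together made up a median of 90.2% of that sum in libraries labelled DKO and 85.9% in those labelled WT, and 82.6% in C1HR and 87.5% in its WT group.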
